A study of Mus musculus with 7 samples.

Results

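A group of 10 genes that mark macrophages of the skin was followed across the 4 ribosome profiling libraries of a study on Pelota. They are Retnla, Ear11, Mrc1, Cd163, Pf4, C1qa, C1qb, C1qc, Lyz2 and Csf1r, chosen by name and matched by symbol in the deposited count table. The choice was made with earlier results of these data known. All 10 of 10 were found, each as 1 row, among 13047 distinct symbols, and all 10 were listed in the 4 libraries and passed the filter on low counts. The study compared epidermis, the outer layer of the skin, between wild-type (WT) mice and transgenic Pelo knockout (KO) mice, with 2 ribosome profiling libraries per genotype. Pelo encodes Pelota, a factor known for releasing ribosomes stalled on mRNA. The labels give no strain, age, sex or further agent for either group, and they do not state which cells lost Pelo or whether replicates were separate animals, so p-values measure the spread between these samples only. RNA-seq libraries named in the labels (2 KO, 1 WT) were not analysed here. A footprint is a stretch of mRNA protected by a ribosome, so its count follows both the amount of an mRNA and how many ribosomes sit on each copy. In such bulk samples, fewer cells of a type and less RNA per cell cannot be told apart.

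Macrophages are phagocytes that live in tissues and clear debris, microbes and dying cells. In skin they sit mainly in the dermis below the epidermis, where many carry the mannose receptor Mrc1 and the haemoglobin receptor Cd163, and they depend on signals through the receptor Csf1r. Cells exposed to the type 2 cytokines IL-4 and IL-13 take up an alternatively activated state, in which the transcription factor STAT6 turns on genes such as Retnla and Arg1. The 3 C1q chains, which start the classical complement pathway, are made by many tissue macrophages whatever their state of activation.

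The KO libraries yielded 4925876 and 4521561 coding footprints and the WT libraries 5282276 and 4221675; pairs of values are given below as replicate 1 and replicate 2. Pelo had 24 and 21 footprints in the KO libraries and 101 and 61 in the WT libraries (log2 change −1.65, SE 0.245, edgeR adjusted p = 0.000807). At an adjusted p of 0.05, 39.0% of the 10953 transcripts tested were called, 19.1% lower and 19.9% higher in KO. A list of 24 fibroblast genes, although the tissue is labelled epidermis, made up 4.78% and 5.37% of KO and 9.52% and 13.9% of WT coding footprints. A list of 20 keratinocyte genes made up 9.77% and 9.20% against 4.64% and 4.40%. Most of the fibroblast share came from the collagen genes Col1a1, Col1a2 and Col3a1, all called lower. Of that list 11 fell, 1 rose and 12 were not called. Footprints of these fibroblast genes were thus present in every library, with a smaller summed share in KO. The part of this shift in the changes below was not tested.

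The upstream sequences of several of these genes hold short words that match known myeloid and type 2 cytokine factors. A relation between these words and the changes between the genotypes was not tested. Sequences of the 250 bases before the start site were taken from RefSeq (GRCm38.p6, not the mm9 annotation of the counts), in which 7 of the 10 genes matched. The word GAGGAA, the core bound by the macrophage factor PU.1, was searched on both strands and stood in 5 of the 7 (Mrc1, C1qb, C1qc, Pf4 and Retnla), and in 23.3% of 32851 promoters. The spaced word TTCNNNNGAA, the kind that STAT6 binds, reads the same on both strands. It stood in 1 of the 7, Retnla, and in 5.85% of all promoters. The 2 words in Retnla do not overlap. Capitals mark the match nearest to the start site, each run is 30 bases read 5′ to 3′ on the gene's strand, and a match is a description of letters, not a measured site.
Retnla, TTCNNNNGAA, chr16:48842454-48842483, + strand: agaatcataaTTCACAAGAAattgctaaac
Retnla, GAGGAA, chr16:48842401-48842430, + strand: aagtgggtttacTTCCTCaagtctcttgaa
Mrc1, GAGGAA (nearest of 3), chr2:14229367-14229396, + strand: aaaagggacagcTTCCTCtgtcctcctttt
C1qb, GAGGAA, chr4:136886213-136886242, − strand: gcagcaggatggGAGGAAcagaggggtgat
C1qc, GAGGAA, chr4:136893090-136893119, − strand: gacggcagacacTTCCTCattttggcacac
Pf4, GAGGAA, chr5:90772405-90772434, + strand: tgtcattgcttctgcagagcacTTCCTCat

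The 10 genes did not move as a block. Footprints on the 2 secreted products Retnla and Ear11 fell by 12.7-fold and 8.11-fold in KO, the scavenger receptor Cd163, the lysozyme Lyz2 and the receptor Csf1r fell less, and the 3 C1q chains, Pf4 and Mrc1 did not pass the test. In all, 5 of the 10 were called lower and 0 higher, against 19.1% lower and 19.9% higher over all transcripts tested (edgeR; DESeq2 also called 0 higher, and 0 of the 10 had an unadjusted p under 0.05 with a higher level in KO). The median log2 change was −0.38, against −0.02 over all transcripts; it was −0.22 without WT replicate 2 and −0.56 with library totals. In 6 of the 10, both KO libraries lay below both WT libraries, which held for 36.5% of all transcripts. Summed over the 10 genes, the KO libraries had 0.123% and 0.105% of their coding footprints and the WT libraries 0.175% and 0.205%, a difference of −0.0759 percentage points (two-sided exact permutation p = 0.33, the smallest that 2 against 2 libraries can give). A called fall of at least 1 on the log2 scale was found for 3 of the 10, Retnla, Ear11 and Cd163, against 6.56% of all transcripts. With DESeq2 the count of 5 was 3, and it was also 3 with unlisted counts at 0. The 10 were chosen with earlier results of these data known, so these comparisons with all transcripts are descriptive only.

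**Figure D1:**
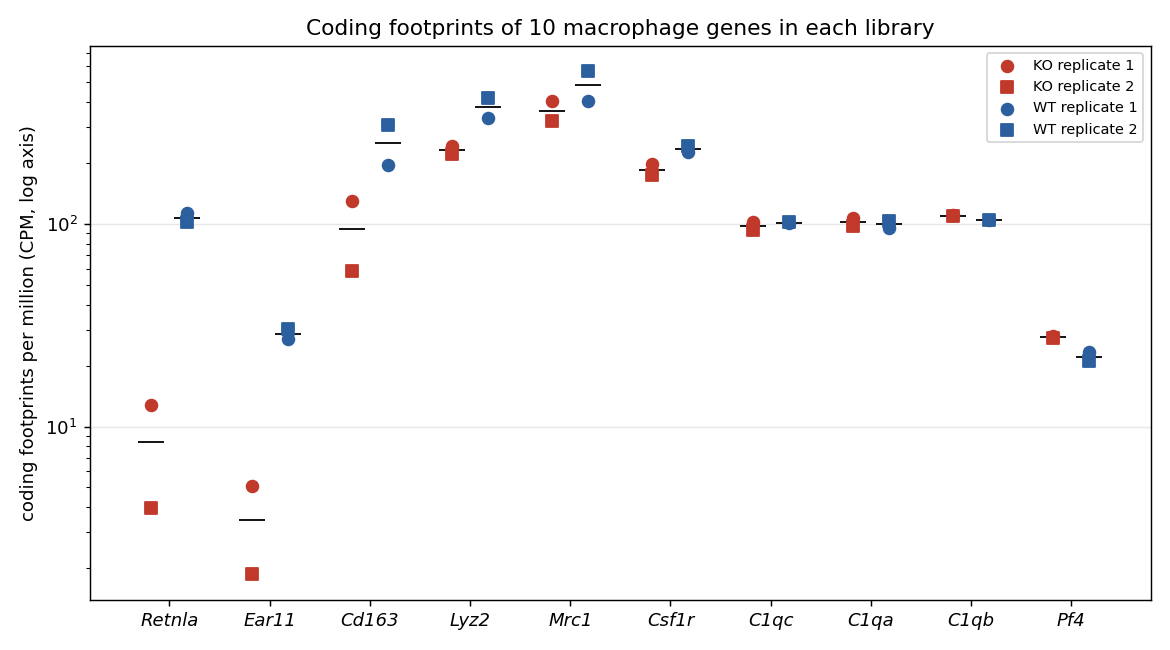
Normalised coding footprint counts (CPM, log axis) of the 10 genes, ordered by their change; red marks stand for KO and blue for WT libraries, circles for replicate 1 and squares for replicate 2, and bars for the mean of 2 libraries. Retnla and Ear11 stand apart between genotypes, whereas the marks of C1qa and C1qc overlap.

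Retnla encodes RELMα, a small secreted protein of the resistin family and a standard marker of alternatively activated macrophages. Its 357 nt coding region (transcript uc007zjv.1) held 58 and 17 footprints in the KO libraries, against 641 and 442 in the WT libraries. The samples are bulk epidermis, and which cells held the Retnla footprints was not tested. Both KO libraries were far below both WT libraries, and KO replicate 2 was the lowest. On the normalised scale this was 8.37 ± 6.25 CPM in KO against 107.4 ± 7.59 in WT (mean ± SD, n = 2 per genotype), a fall of 12.7-fold (log2 change −3.66, SE 0.320, edgeR adjusted p = 3.71e-05). The KO libraries differed from each other, and leaving out KO replicate 1 gave −4.75 and leaving out KO replicate 2 gave −3.06. A log2 fall of 3 or more among called transcripts was seen in 0.11% of those tested, 12 in all, and Retnla and Ear11 were 2 of them. Ear11 lay close to this cut (−3.02, and −2.48 without KO replicate 2). Transcripts unlisted in any library were not tested and could not be counted, so this share is descriptive only.

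Ear11 encodes a secreted ribonuclease of the eosinophil-associated family, which alternatively activated macrophages also make. It held 23 and 8 footprints in KO and 154 and 131 in WT, again with KO replicate 2 lowest and no overlap. The means were 3.47 ± 2.27 and 28.7 ± 2.22 CPM (8.11-fold lower in KO, log2 change −3.02, SE 0.313, edgeR adjusted p = 9.34e-05). Without KO replicate 1 the log2 change was −3.92, and without KO replicate 2 it was −2.48. Ear genes are close copies of each other, and no source used here states how shared reads were assigned, so the separate values of these genes are uncertain.

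All 6 other Ear genes with a test fell as well. Ear1 had 36 and 39 footprints in the KO libraries and 337 and 261 in the WT libraries (log2 change −2.81), Ear2 120 and 98 against 827 and 645 (−2.58), and Ear10 75 and 57 against 507 and 395 (−2.59). Ear4 (−2.64), Ear7 (−1.85) and Ear5 (−1.22) were also called lower. Of the resistin family, Retn, the adipocyte hormone resistin in mice, fell by 1.34 on the log2 scale from 144 and 66 footprints in WT to 47 and 25 in KO. Retnlg, which neighbours Retnla in the RefSeq gene order, held 15 and 9 footprints in WT and was unlisted in both KO libraries, where an unlisted value can reach 2. The table lists a value only where coding footprints exceed 0.01 per nt, so an unlisted value is an upper bound and not a 0.

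Eosinophils are a second known source of Ear transcripts. The eosinophil granule genes Prg2 and Epx gave no value in the table used here. Of other eosinophil genes, Siglecf, listed as Siglec5, held 41 footprints in WT replicate 1 and was unlisted in the other 3 libraries, and the chemokine receptor Ccr3 held 20 and 29 in KO against 91 and 20 in WT, which overlapped and did not pass (log2 change −0.95, edgeR adjusted p = 0.164). The eosinophil list, Ear1 and Ear2 included, made up 0.00571% and 0.00816% of coding footprints in the KO libraries and 0.0296% and 0.0265% in the WT libraries; the other tested eosinophil genes, Ccr3 and Alox15 (105 and 203 against 254 and 192 footprints), were not called. Without KO replicate 2 all 4 tested eosinophil genes were called lower, and without WT replicate 2 it was 3 of the 4. The part of eosinophils in the fall of Ear11 was not tested.

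Among the surface receptors, Cd163 fell and Mrc1 did not pass. Cd163, which takes up haemoglobin bound to haptoglobin, held 587 and 251 footprints in KO and 1111 and 1327 in WT. All 4 libraries were apart, with KO replicate 2 the lowest and WT replicate 2 the highest. The means were 93.9 ± 50.3 against 251 ± 78.4 CPM (2.66-fold lower in KO, log2 change −1.41, SE 0.322, edgeR adjusted p = 0.00764). The spread within each genotype was wide: the log2 change was −2.10 without KO replicate 1 and −0.95 without KO replicate 2, and with DESeq2 the call was lost (−1.41, adjusted p = 0.0907). It was also lost with unlisted counts at 0 (edgeR adjusted p = 0.0517), whereas the other alternatives kept it.

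Mrc1 encodes the mannose receptor CD206, an endocytic lectin for glycoproteins and collagen fragments. It held 1824 and 1380 footprints in KO and 2298 and 2461 in WT, or 402 and 321 CPM against 404 and 568. KO replicate 1 and WT replicate 1 stood side by side, and the genotypes touched without overlapping. The log2 change of −0.43 (SE 0.174, unadjusted 95% interval −0.82 to −0.03, edgeR adjusted p = 0.0812) missed the threshold. It passed without KO replicate 1 (−0.60), without WT replicate 1 (−0.66) and with library totals in place of TMM factors (−0.60). The change was smaller and did not pass without KO replicate 2 (−0.27, edgeR adjusted p = 0.281) or without WT replicate 2 (−0.16, edgeR adjusted p = 0.490). Its relatives in the mannose receptor family were Mrc2 (−0.30, adjusted p = 0.194) and Ly75 (0.20, adjusted p = 0.403), which did not pass, and Pla2r1, the phospholipase A2 receptor, which fell by 0.62 on the log2 scale. Cd163l1, a scavenger receptor related to Cd163, held 31 and 30 footprints in WT and was unlisted in KO, where the bound is 29, so no fall can be read from it.

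Csf1r is the receptor for the growth factors Csf1 and Il34, on which macrophages and Langerhans cells depend. It held 892 and 750 footprints in KO and 1293 and 1053 in WT, or 197 and 174 CPM against 227 and 243. The KO libraries were the lower in both replicates, by a small step (1.27-fold, log2 change −0.34, SE 0.117, edgeR adjusted p = 0.0444). The call lay at the threshold: it was lost without KO replicate 2 (−0.25, adjusted p = 0.233), without WT replicate 1 (−0.40, adjusted p = 0.061), without WT replicate 2 (−0.29, adjusted p = 0.162) and with DESeq2 (−0.33, adjusted p = 0.179), and also with unlisted counts at 0 (edgeR adjusted p = 0.0638) or at their upper bound (0.0611); with library totals the change was −0.52. Both ligands fell. Csf1 had 176 and 132 footprints in the KO libraries and 296 and 281 in the WT libraries (log2 change −0.74, edgeR adjusted p = 0.00686). Il34, the ligand that keratinocytes are known to make for Langerhans cells, held 53 and 49 against 152 and 84 (−1.01, edgeR adjusted p = 0.00519). Of 28 tested genes for ligands and signalling around this receptor, 7 fell, 2 rose and 19 were not called. Over all transcripts tested, 19.1% were called lower and 19.9% higher. The kinase Syk fell by 1.12 on the log2 scale, and the rises were in the transcription factor Cebpb (1.11) and the mast cell and melanocyte receptor Kit (1.32). With library totals the number of falls was 13, and with DESeq2 it was 4.

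Lyz2, the lysozyme of macrophages and other myeloid cells, carried the most footprints per length of the 10 in both genotypes. It held 1097 and 950 footprints in KO and 1888 and 1821 in WT. The means of 231 ± 14.98 and 376 ± 62.4 CPM did not overlap (1.62-fold lower in KO, log2 change −0.70, SE 0.137, edgeR adjusted p = 0.0036), and the call held in every alternative that was run. Its neighbour and close copy Lyz1 had 493 and 399 footprints in the KO libraries and 951 and 1017 in the WT libraries (−0.99, edgeR adjusted p = 0.00177). Both coding regions are 387 nt long, and reads may have been shared between them.

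The C1q genes did not pass the test in any setting, with levels close between genotypes. C1q is a bundle of A, B and C chains that binds antibody and dying cells, and its genes lie side by side (C1qb, C1qc, C1qa in the RefSeq gene order). C1qa held 484 and 419 footprints in KO and 540 and 450 in WT, or 106.8 and 97.4 CPM against 94.99 and 103.9, with the genotypes overlapping. C1qb held 499 and 472 against 596 and 453, or 110.1 and 109.7 CPM against 104.8 and 104.5. C1qc held 465 and 400 against 572 and 441, or 102.6 and 93.0 CPM against 100.6 and 101.8, again overlapping. The log2 changes were 0.04 for C1qa (unadjusted 95% interval −0.24 to 0.31), 0.07 for C1qb (−0.19 to 0.33) and −0.05 for C1qc (−0.32 to 0.22), none past the threshold (edgeR adjusted p of 0.828, 0.662 and 0.780). These intervals hold no change of the size seen for Retnla, Ear11 or Cd163, whose own intervals were −4.39 to −2.94, −3.72 to −2.31 and −2.14 to −0.69. Scaled to library totals, C1qa (−0.14) and C1qb (−0.11) turned negative; under that scaling the changes over all genes shifted by a median of −0.18. Leaving out 1 library also turned the sign of C1qa (without KO replicate 1 or WT replicate 1) and of C1qc (without KO replicate 2). Per nt of coding region, each chain took 31.3% to 35.8% of the C1q footprints in every library, close to equal shares in both genotypes.

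Pf4, platelet factor 4, is a chemokine of platelets that tissue macrophages also express. It held 127 and 117 footprints in KO and 132 and 91 in WT, or 28.02 and 27.2 CPM against 23.2 and 21.0. Both KO libraries lay above both WT libraries, as for 35.4% of all transcripts, and the log2 change of 0.32 did not pass (SE 0.154, edgeR adjusted p = 0.134); with library totals it was 0.14. Genes of the platelet list varied in level. The platelet receptor genes Gp1ba and Gp9 gave no value in the table used here. Ppbp, another platelet chemokine and the neighbour of Pf4, held 3 footprints in KO replicate 1 and was unlisted elsewhere. Itga2b held 36 in KO replicate 1 only. Selp held 44 and 27 in KO and was unlisted in WT, where an unlisted value can reach 22. Vwf (449 and 425 against 502 and 500) and Itgb3 (84 and 78 against 125 and 128) were listed in every library and not called. The part of platelets in the level of Pf4 was not tested.

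**Figure D2:**
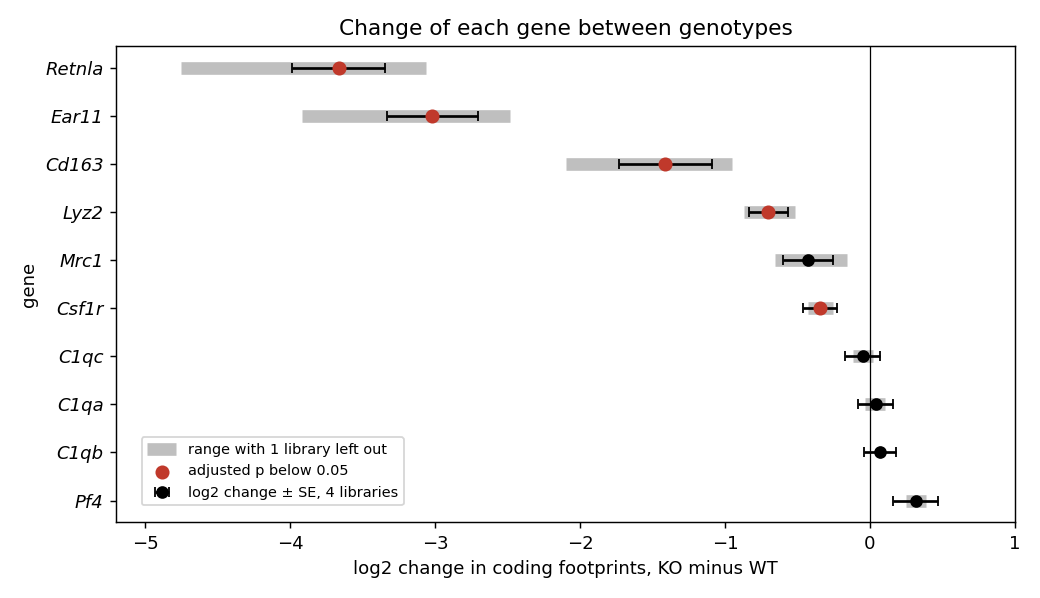
Log2 change in coding footprints, KO minus WT, of each gene with its SE from the 4 libraries (points and error bars), the range when 1 library was left out (grey), and calls at an adjusted p of 0.05 in red. The ranges of Retnla, Ear11 and Cd163 stay below −0.9, and those of the C1q genes lie around 0.

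Per length of coding region, which allows levels of different genes to be compared, Lyz2 led in WT with 972 ± 161 CPM per kb. Retnla came second with 301 ± 21.3, followed by the C1q chains at 146.6 to 149.1, Mrc1 at 112.8 ± 26.9, Pf4 at 85.7 ± 6.07, Csf1r at 81.9 ± 3.84, Cd163 at 73.3 ± 22.9 and Ear11 at 70.2 ± 5.45. The C1q chains did not differ from each other beyond their spread, nor did Pf4, Csf1r and Cd163, nor Cd163 and Ear11. In KO the order was Lyz2 (598 ± 38.7), the C1q chains (143.6 to 156.6), Pf4 (107.0 ± 2.25), Mrc1 (83.9 ± 13.4), Csf1r (64.6 ± 5.52), Cd163 (27.5 ± 14.7), Retnla (23.4 ± 17.5) and Ear11 (8.50 ± 5.57). Retnla thus moved from the second to the ninth place, and in KO it did not differ from Cd163 or Ear11 beyond the spread, nor did neighbouring C1q chains from each other.

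Set against the summed C1q chains of the same library, the levels do not depend on library scaling; since every gene is divided by the same value, the order of the changes is that of the CPM values and adds no support to it. Retnla stood at 4.01% and 1.32% of the C1q CPM in KO and 37.5% and 32.9% in WT. Ear11 stood at 1.59% and 0.620% against 9.02% and 9.75%, and Cd163 at 40.5% and 19.4% against 65.0% and 98.7%. Lyz2 stood at 75.8% and 73.6% against 110.5% and 135.5%, and Csf1r at 61.6% and 58.1% against 75.7% and 78.4%. In each of these 5, and in Mrc1, both KO libraries were below both WT libraries. By CPM this held for 36.5% of all transcripts tested. Mrc1 stood at 126% and 106.9% against 134.5% and 183%, and Pf4, higher in KO, at 8.77% and 9.06% against 7.73% and 6.77%. On the log2 scale the ratio changed by −3.94 for Retnla, −3.24 for Ear11, −1.51 for Cd163, −0.71 for Lyz2, −0.44 for Mrc1, −0.36 for Csf1r and 0.30 for Pf4. Two-sided exact permutation tests over the 4 libraries gave p = 0.33 for each of these 7 ratios, the smallest possible here, so they also stay at 0.33 after adjustment and none can pass.

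**Figure D3:**
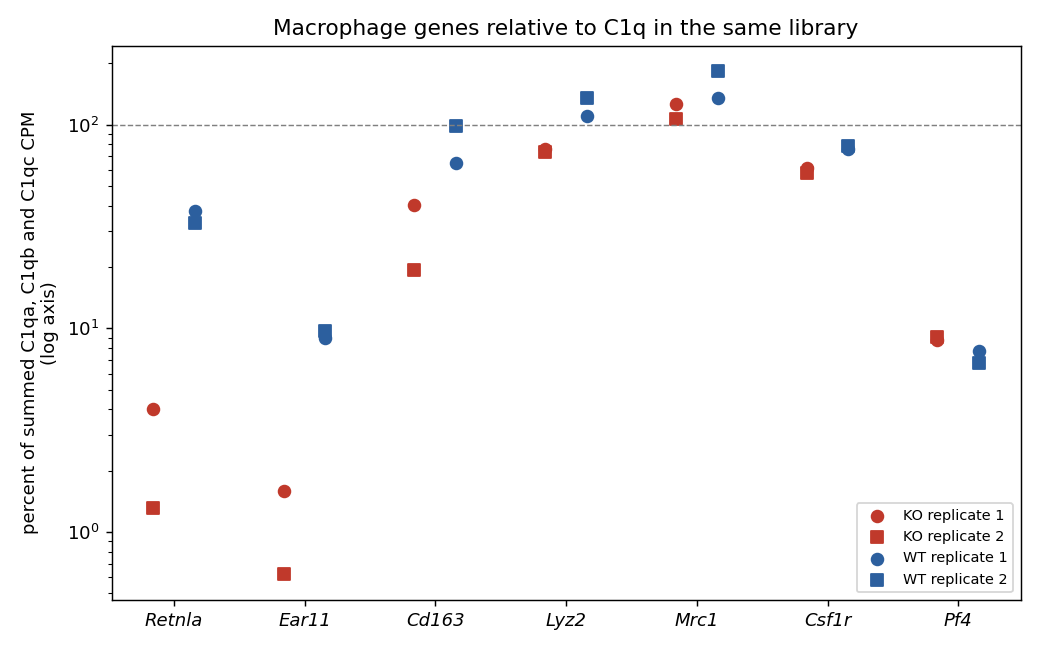
Level of 7 genes in each library as a percentage of the summed CPM of C1qa, C1qb and C1qc in that library (log axis, dashed line at 100%); red stands for KO, blue for WT, circles for replicate 1 and squares for replicate 2. Retnla, Ear11 and Cd163 sit lower in both KO libraries, and Pf4 sits slightly higher.

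Other macrophage genes were split in the same way, with some lower and many not called. For this list and those below, the shares over all transcripts tested were 19.1% lower and 19.9% higher. Of 37 tested, 14 fell, 3 rose and 20 were not called, with a median log2 change of −0.29 (−0.50 without KO replicate 1, −0.19 without WT replicate 2 and −0.47 with library totals). Emr1, which encodes the macrophage surface marker F4/80, had 349 and 399 footprints in the KO libraries and 704 and 625 in the WT libraries (log2 change −0.66, edgeR adjusted p = 0.00538), while the lysosomal marker Cd68 held 152 and 159 against 189 and 142 (0.09, adjusted p = 0.630). Both were listed in every library. Without WT replicate 1 the number of rises was 1, and without KO replicate 2 it was 5. Ccl24, a chemokine for eosinophils, fell by 1.97 on the log2 scale (6 and 7 against 28 and 30 footprints). Gas6, a bridging protein that marks dying cells, fell by 1.74, and Mertk, the receptor for it, fell by 1.58 (47 and 51 against 185 and 147). The lectin Cd209b fell by 1.70, a call lost with DESeq2 (adjusted p = 0.0646).

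Among genes of the IL-4 response and alternative activation, 8 of 16 tested fell, 2 rose and 6 were not called, with a median of −0.66. Of the falls, Ccl24, Clec10a and Mgl2 also stand in the list of other macrophage genes, and Pparg in the adipocyte list. Arg1, the arginase of alternatively activated macrophages, which keratinocytes can also express, had 68 and 36 footprints in the KO libraries and 352 and 225 in the WT libraries (log2 change −2.28, SE 0.229, edgeR adjusted p = 7.86e-05). The transcription factor Irf4 held 18 and 16 against 55 and 85 (−1.89), and the lectin Mgl2 held 528 and 480 against 1164 and 1736 (−1.40, or −0.84 without WT replicate 2). In each, both KO libraries were below both WT libraries, as in 36.5% of all transcripts tested. These genes were named for being among the largest called changes of the list. The receptor subunits Il4ra (0.86) and Il13ra1 (0.40) were the 2 rises, and Stat6 itself did not pass (423 and 440 against 610 and 485 footprints, −0.16, adjusted p = 0.304). The cytokines Il4 and Il13 gave no value in the table used here. The median was −0.36 without WT replicate 2. Without WT replicate 1 the number of falls was 4, and with DESeq2, library totals, either value for unlisted counts, or without KO replicate 1 or WT replicate 2 the number of rises was 1. Of 8 tested genes of classical activation, 1 rose, the cytokine Il1a (1.54), which keratinocytes also make, and the other 7 were not called, among them 0 falls (edgeR; 0 with DESeq2). Without KO replicate 1 there were 3 rises and 1 fall, and without WT replicate 2 there were 2 rises and 1 fall.

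Other complement genes went both ways. Of 27 tested, 9 fell, 4 rose and 14 were not called, with a median of −0.08 that ran from −0.32 without KO replicate 1 to −0.0020 without KO replicate 2; it was −0.23 without WT replicate 1, −0.03 without WT replicate 2 and −0.26 with library totals. C1ra (−0.22, adjusted p = 0.176) and C1s (0.06, adjusted p = 0.723), the proteases that join C1q, did not pass. C3, the central component, had 1620 and 708 footprints in the KO libraries and 7995 and 4296 in the WT libraries (log2 change −2.20, edgeR adjusted p = 0.000628). The protease Cfd, which adipocytes secrete, fell by 1.47, and the membrane inhibitor Cd59a by 1.26. Masp1, a protease of the lectin pathway, rose with 217 and 195 footprints against 45 and 46 (2.35, edgeR adjusted p = 1.9e-05). Among scavenger receptors and haemoglobin handling genes, 10 of 21 fell and 3 rose (1 without KO replicate 1), with the ferritin receptor Scara5 lower (−2.21) and Hp, the haptoglobin that delivers haemoglobin to Cd163, higher (1.96, 692 and 353 against 204 and 104 footprints).

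Other cell types moved beside the macrophage genes. The pan-leukocyte list, with 12 of 25 lower and 0 higher, had a median of −0.38 and made up 0.0897% and 0.101% of the KO libraries and 0.141% and 0.145% of the WT libraries. Its leukocyte marker Ptprc fell by 0.61 on the log2 scale. DESeq2 and the removal of WT replicate 2 each left 6 falls and still 0 rises, and 0 members of that list were higher by edgeR at an unadjusted p under 0.05. The dendritic and Langerhans cell list had 9 of 16 lower and 2 higher (1 higher with DESeq2, library totals or unlisted counts at 0). Its largest called change was a rise, in Fscn1 (1.17), and Cd24a also rose (0.56). Its falls included Cd74 (−1.14), the invariant chain of MHC class II, and the class II genes H2-Aa (−0.91), H2-Ab1 (−0.75) and H2-Eb1 (−1.065). Cd207, the Langerhans cell lectin langerin, did not pass (−0.45, edgeR adjusted p = 0.0521). Of 10 monocyte genes, 4 fell, including the chemokine receptor Ccr2 (−0.63), and 1 rose; with DESeq2 and without WT replicate 2 only 1 fall was left, and Ccr2 lost its call in both and without KO replicate 2. Mast cell genes went the other way, with 8 of 10 higher and 1 lower: the carboxypeptidase Cpa3 rose by 1.34 and the protease Cma1 by 1.37 on the log2 scale. The fall was in Hpgds (−1.52, edgeR adjusted p = 0.000116). Adipocyte genes fell in 13 of 15 with a median of −1.17, and fibroblast genes in 11 of 24 with a median of −0.40, 1 rising (7 falls, 2 rises and a median of −0.20 without WT replicate 2). The part of these shifts in the changes of the macrophage genes was not tested.

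**Figure D4:**
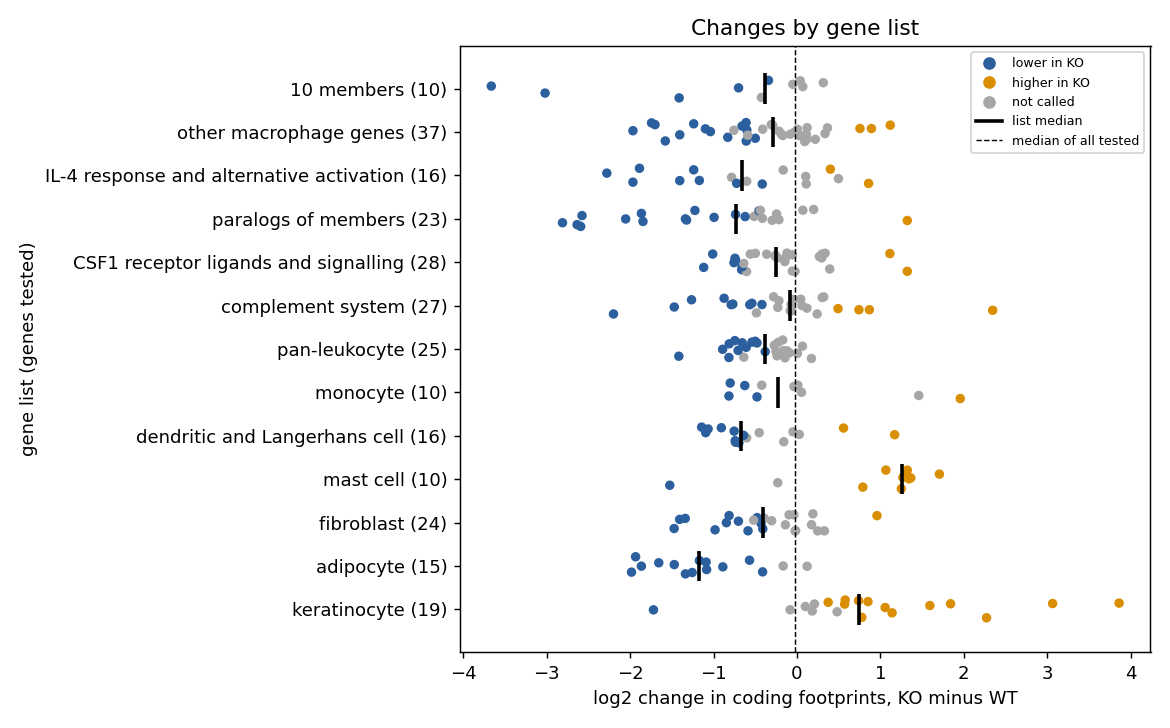
Log2 change in coding footprints, KO minus WT, of every tested gene in 13 lists, with the number tested in brackets; blue points are lower, orange higher and grey not called at an adjusted p of 0.05, thick lines are list medians, and the dashed line is the median of all tested transcripts. The 10 genes spread from −3.66 to 0.32, and most mast cell and keratinocyte genes lie to the right.

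By a rule set on likeness alone, genes were ranked by the root mean square distance of their centred log2 CPM over the 4 libraries, among 10158 candidates. Nearest to the mean C1q profile were Prrc1 (0.0102), Stag2 (0.0104), Dlat (0.0121), Vps35 (0.0125) and Exosc7 (0.0135). Nearest to Csf1r were Srgap1 (0.0144), Sin3a (0.0152), Smg9 (0.0199), Nsd1 (0.0215) and Fbxw5 (0.0217). No gene was as near to Retnla: the distances were 0.451 for Mrgprb3, 0.651 for Igfbp6, 0.749 for Sema3e, 0.753 for Cyp2f2 and 0.783 for Sema3d. With 4 libraries, near-flat profiles have many neighbours, and these distances describe the shape only.

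Footprints outside the coding regions of the 10 genes were few. The 5′ UTRs of the 10 held 48 and 57 footprints in KO and 40 and 34 in WT, or 0.793% and 1.20% of their coding counts against 0.434% and 0.392%. Over all listed transcripts the same measure was 1.45% and 1.69% in KO against 1.09% and 0.996% in WT, also higher in KO. Mrc1, with 13 and 12 against 14 and 11 footprints in a 93 nt 5′ UTR, and C1qc, with 10 and 20 against 12 and 13 in 66 nt, held the most. Per nt, the C1qc leader carried 22.2% and 51.6% of its coding density in KO and 21.6% and 30.4% in WT, which overlapped. The 3′ UTRs, where ribosomes that were not released can be found, held 10 and 7 footprints in KO and 19 and 20 in WT over the 10 genes, or 0.165% and 0.147% of coding counts against 0.206% and 0.231%. Over all listed transcripts that share was 0.570% and 0.611% against 0.702% and 0.669%. Of these footprints, Lyz2 held 5 and 4 against 8 and 9, and Retnla 0 and 0 against 5 and 5, where its coding count was also low. No test was made on counts this small.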

How the data were processed

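The title of each ribosome profiling library of mouse epidermis gave its genotype group. Per the submitters' processing notes, mm9 and hg19 were named as builds and Bowtie2 2.2.6, TopHat2 2.0.10 and CASAVA 1.8 as tools; no source used here gives their roles. The authors deposited raw footprint counts per transcript region on mm9 annotation, per the read-me file headers, with region lengths in nt and the ratio of footprints to length. The full-length and short-footprint tables are byte-identical, so the footprint length is unknown. Counts are listed only above 0.01 coding footprints per nt (0 listed values at or below it).

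The 11019 transcripts listed in all 4 libraries were kept where 2 or more libraries had 10 or more counts, leaving 10953. These were TMM-scaled (CPM values are scaled this way) and tested with edgeR 4.0.16 in R 4.3.3 (quasi-likelihood test, Benjamini-Hochberg over all 10953). The SE is the log2 change over the root of F. DESeq2 1.42.0, other scalings and filters, and leaving out each library were alternatives. Medians of 90 to 112 coding footprints per listed transcript limit precision, and replicates differed by more than sampling noise (chi-square per gene of 5.47 in KO and 10.0 in WT). On simulated counts for this comparison (10939 genes), 77% of changes of log2 1 and 99% of changes of log2 2 were called, as were 0.00931% of unchanged genes. The simulation gave every gene the same spread, and changes only to some genes with a mean of 10 or more counts. These rates need not hold for genes with a wider spread, such as Cd163.

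The 10 genes and the 20 gene lists were chosen with earlier results of these data known. Named genes were the 10, Pelo, from each list the 4 largest called changes at most, absent defining markers, and the 5 nearest profiles. Others were named after their values were seen. In the neutrophil list below, the 4 rises were S100a8, S100a9, Cxcr2 and Lcn2. Ly6g, Camp, Ngp, Elane, Ltf and Prtn3 gave no value, and Mpo, Retnlg and Cxcl2 were listed in WT only. No direction of neutrophils can be read from that count. The planned lists also covered lysosome genes (8 of 30 higher, 8 lower; 3 lower without KO replicate 2 or WT replicate 2, 4 with DESeq2 or unlisted counts at 0, 5 with these at their upper bound), neutrophil (4 of 6 higher, 1 lower; 0 lower with unlisted counts at 0, without KO replicate 2 or without WT replicate 1), platelet (0 of 2 called by edgeR or DESeq2, 1 lower at an unadjusted p under 0.05, with library totals and without WT replicate 1), T cell (1 of 11 higher, 3 lower; 0 higher with DESeq2, library totals or unlisted counts at 0, and without KO replicate 2 or WT replicate 1) and endothelial genes (1 of 14 higher, 1 lower; 5 lower with library totals).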

Additional observations from a re-analysis of the deposited data

How the results depend on the processing

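Over 10 alternative settings, the log2 changes of the 10 genes kept their direction wherever they were called (C1qa, C1qb and C1qc, which were not called, turned sign in 1 or more), and 89 of 100 values stayed on the same side of the threshold. Without 1 library each, 4 to 6 genes were called lower and 0 higher. Unlisted counts at 0 and DESeq2 each left 3 lower; Cd163 and Csf1r lost their calls. The cause was not tested. Over all transcripts DESeq2 called 1177 lower against 2093, and the lower and higher calls without 1 library ran from 1566 to 1892 and from 1703 to 1953; library totals gave 1501 higher and 3023 lower. The summed share of the 10 genes differed by −0.0554 percentage points without Lyz2 and Ear11, fewer genes by construction, and by −0.0605 to −0.0912 without 1 library. The median of the 10 less that of the pan-leukocyte list ran from −0.21 without KO replicate 1 to 0.15 without KO replicate 2, with 0.11 without WT replicate 2, the last 2 reversed against the 4-library value; less that of the fibroblast list it was −0.18 without KO replicate 1, 0.11 without KO replicate 2, −0.02 without WT replicate 1 and −0.02 without WT replicate 2, the negative ones reversed, so no order of these medians can be read. Of 78 other named genes, 740 of 776 values were on the same side and 36 lost the call. The labels do not say that a replicate number marks an animal or a day, and deviations of same-numbered libraries correlated at −0.00375 across genes; with the replicate block, 2212 transcripts were higher and 2125 lower, and 5 of the 10 genes were lower.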
